A study of Homo sapiens with 6 samples.

Results

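The signal peptidase complex was followed through its 5 genes, SPCS1, SPCS2, SPCS3, SEC11A and SEC11C, in A549 cells with or without knockdown of MRPL35. Members were the probe sets whose platform annotation gave exactly 1 gene symbol, equal to 1 of these 5, which found 12 of the 49395 probe sets on the array and 5 of the 18244 genes tested. The set was chosen on the large fall of SPCS1 in the same KD and NC arrays, so the values of SPCS1 are given as a description, without a test. The other 4 genes came in as partners of SPCS1 in the complex.

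A549 is an established human lung adenocarcinoma line. The cells received a lentivirus carrying a short hairpin RNA against MRPL35, a protein of the mitochondrial ribosome (shMRPL35, group KD, 3 samples), or a lentivirus carrying a control hairpin (shctrl, group NC, 3 samples). Both groups were thus transduced cells of the same line, and 1 hairpin label is given for the knockdown. Each sample was hybridised to 1 Affymetrix array, on which a probe set is a group of short probes whose brightness is summarised as 1 value on the log2 scale, so a difference of 1 is a doubling or halving of signal. The labels do not state separate cultures for the samples of a group, so that p-values here reflect sample-to-sample spread that may be technical. The source names of NC replicates 2 and 3 give the cell line another number, while their characteristics give A549, and they were used as A549.

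Signal peptidase sits in the membrane of the endoplasmic reticulum and cuts the signal peptide from secretory and membrane proteins as they enter through the translocon. Its catalytic subunit is either SEC11A or its paralog SEC11C, each a serine protease that assembles with the accessory subunits SPCS1, SPCS2 and SPCS3. SPCS1 is a small membrane-spanning accessory subunit that is dispensable for cleavage in yeast, and in human cells it is known as a host factor for flaviviruses. SPCS3 carries a large lumenal domain that contacts the catalytic subunit, and its yeast counterpart is essential.

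The target and the identity of the cells were checked first. By its brightest probe set MRPL35 was lower in the KD arrays, at 6.49, 6.44 and 6.56, against 8.16, 8.05 and 8.36 in the NC arrays (log2 level). That left 30.9% of the control signal. Its other probe sets kept 38.6%, 25.4% and, for the dimmest, 74.8%. The epithelial keratins KRT7, KRT8, KRT18 and KRT19 lay between 10.97 and 13.95 on every array, EPCAM between 5.69 and 6.26, and CDH1 between 8.29 and 9.89. These markers were not all stable. CDH1 (1.31), KRT18 (0.50), KRT8 (0.44) and KRT19 (0.37) were higher in KD (log2, limma adjusted p 3.96e-05 to 0.00454). KRT7 and EPCAM did not pass. The 9 measured markers of leukocytes, fibroblasts and endothelium lay between 2.33 (PTPRC) and 6.11 (CD14), the upper end reaching the range of EPCAM, though levels of different probe sets are not comparable. CD14, a monocyte gene, was higher in KD by 0.60 (log2, limma adjusted p = 0.00293), and the other 8 did not pass; the part of other cells in the results was not tested. Arrays within a group correlated at 0.994 or above across genes, and NC replicate 2 stood apart from the other 5 arrays on the second principal component, which carried 11.8% of the variance. Calls that change without it are given in both forms.

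SPCS1 was the member with the large change. Its brighter probe set, 11743905_a_at, read 7.64, 7.44 and 7.60 in the KD arrays, against 10.33, 10.16 and 10.26 in the NC arrays (log2 level). Every KD array lay below every NC array, as for 21.5% of all genes. The means were 7.56 ± 0.11 in KD and 10.25 ± 0.084 in NC (SD, n = 3 each), a log2 change of -2.69 with a standard error of 0.089, or 6.45-fold lower. In bulk samples such as these, less of an RNA per cell and fewer cells that hold it cannot be told apart. By the brightest probe set of each gene, the knockdown cells kept 15.5% of the control signal of SPCS1, against 30.9% for MRPL35 itself. Other probe sets gave 83.2% for SPCS1 and 25.4% to 74.8% for MRPL35. Of all 18244 genes, 6 had a log2 change as low as that of SPCS1 or lower, SPCS1 included, which is 0.0329% of them.

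The other probe set of SPCS1, 11759520_s_at, was dim. It gave log2 levels of 2.90, 2.65 and 2.74 in KD and 3.11, 3.03 and 2.95 in NC. Here too the KD arrays lay below the NC arrays, as for 20.0% of all probe sets, but by little, with a change of -0.26 and a standard error of 0.095. The fall of SPCS1 therefore rests on 1 probe set, and averaging both probe sets gave a change of -1.48. Whether the dim probe set measured SPCS1 transcripts in these cells was not tested.

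The 5 genes whose profile over the 6 arrays was most like that of SPCS1 were RRM2, MND1, CENPH, GINS3 and BCAT1. Likeness was the root mean square difference between profiles, each centred on the gene's own NC mean, on the log2 scale over 6 arrays. It was 0.067 for RRM2, 0.072 for MND1, 0.10 for CENPH, 0.12 for GINS3 and 0.15 for BCAT1. Their log2 changes lay between -2.67 (MND1) and -2.83 (BCAT1), on either side of that of SPCS1. With 2 groups and small spread within each, this measure ranks genes mainly by how close their fall is in size to that of SPCS1.

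**Figure D1:**
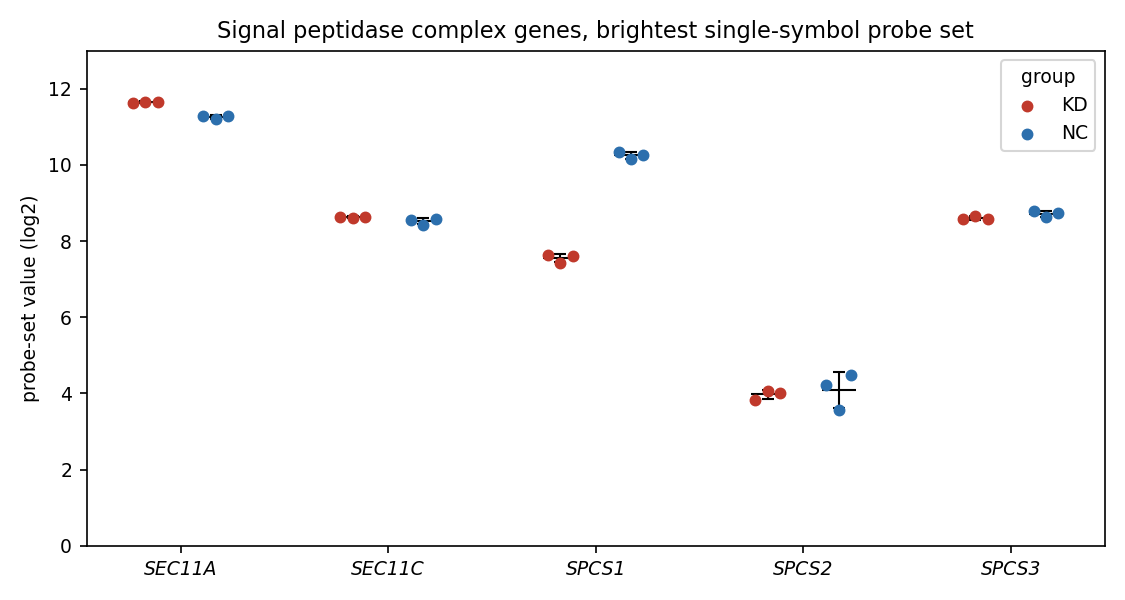
Level of each signal peptidase gene on each array. The y axis is the log2 value of the gene's brightest probe set with 1 symbol; red points are the 3 KD arrays and blue points the 3 NC arrays, with black marks for the mean and bars for the SD. SPCS1 runs between 7.44 and 7.64 on the KD arrays and between 10.16 and 10.33 on the NC arrays, while the KD means of the other 4 genes lie within 0.39 of their NC means.

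The catalytic subunits did not fall with SPCS1. SEC11A was modestly higher in the knockdown cells on each of its probe sets, and SEC11C did not pass the test. Among the 4 genes other than SPCS1, 1 was called higher and 0 lower, where over all 18244 genes 17.6% were called higher and 15.9% lower (limma, Benjamini-Hochberg adjusted p under 0.05). At an unadjusted p under 0.05 the limma counts among these 4 genes were also 1 and 0, where 21.1% of all genes were higher and 19.4% lower.

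SEC11A read 11.62, 11.67 and 11.65 in the KD arrays, against 11.28, 11.20 and 11.29 in the NC arrays, by its brightest probe set (log2 level). Every KD array lay above every NC array, as for 23.2% of all genes. The log2 change was 0.39 with a standard error of 0.074, or 1.31-fold higher (limma, adjusted p = 0.00311). Against the 49293 probe sets that are not controls, its remaining probe sets changed by 0.39, 0.40 and 0.42, with limma adjusted p between 0.00278 and 0.00730. All 4 probe sets rose by 1.31 to 1.34-fold with no overlap between groups, where 16.5% of all probe sets were called higher and 22.5% did not overlap in that direction. Among the 10 member probe sets outside SPCS1 these were the only calls, with 0 called lower, where 14.1% of all probe sets were. These probe sets all carry s or x suffixes, which mark probes that may also match other transcripts. No SEC11A probe set was free of them, and whether other transcripts added to the signal was not tested. They are annotated to the same gene, so they are not independent replicates.

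SEC11C read 8.64, 8.62 and 8.64 in the KD arrays and 8.56, 8.43 and 8.57 in the NC arrays (log2 level). The groups did not overlap, but NC replicate 2 was the lowest by over 0.1 and the gap between the nearest arrays was small. The log2 change was 0.11 with a standard error of 0.078 (limma, adjusted p = 0.346), and its 95% interval ran from -0.066 to 0.29. The dim probe set of SEC11C changed by 0.24 with a limma adjusted p of 0.0716 over all probe sets, at levels of 3.52 ± 0.12 in KD and 3.27 ± 0.012 in NC (log2, SD, n = 3 each). With KD replicate 2 left out this dim probe set passed, at 0.31 with a limma adjusted p of 0.0444.

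Changes of the paralogs and of SPCS3 were also compared with each other, as per-array differences centred on the NC mean. The change of SEC11A exceeded that of SEC11C by 0.28 with a standard error of 0.029 on the log2 scale, and all 3 KD arrays (0.24, 0.32 and 0.27) lay above all 3 NC arrays (-0.021, 0.038 and -0.017). SEC11A exceeded SPCS3 by 0.49 and SEC11C exceeded SPCS3 by 0.22. Each of these 3 comparisons had a two-sided exact permutation p of 0.1, also after adjustment over the 3, which is the smallest p that 3 arrays against 3 allow.

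The start regions of the paralogs are shown because they are the promoters of the catalytic subunit that rose and of the one that did not pass. The windows run from 250 bases before to 50 after the annotated start in RefSeq, build GRCh38.p14, 5′ to 3′ on the strand of the gene, and matched 4 of the 5 genes, all but SPCS1. That of SEC11A lies at chr15:84716090-84716389 on the minus strand and that of SEC11C at chr18:59139634-59139933 on the plus strand. Capitals mark the motifs searched, on both strands: the GC box GGGCGG, the ETS core CCGGAAG, the E-box CACGTG and the CCAAT box CCAAT.
SEC11A: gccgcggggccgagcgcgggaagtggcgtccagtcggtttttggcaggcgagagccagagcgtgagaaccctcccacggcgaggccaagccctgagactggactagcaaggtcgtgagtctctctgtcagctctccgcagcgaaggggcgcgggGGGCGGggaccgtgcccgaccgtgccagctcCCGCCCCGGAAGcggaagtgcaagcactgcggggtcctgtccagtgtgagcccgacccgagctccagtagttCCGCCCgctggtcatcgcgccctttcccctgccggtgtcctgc
SEC11C: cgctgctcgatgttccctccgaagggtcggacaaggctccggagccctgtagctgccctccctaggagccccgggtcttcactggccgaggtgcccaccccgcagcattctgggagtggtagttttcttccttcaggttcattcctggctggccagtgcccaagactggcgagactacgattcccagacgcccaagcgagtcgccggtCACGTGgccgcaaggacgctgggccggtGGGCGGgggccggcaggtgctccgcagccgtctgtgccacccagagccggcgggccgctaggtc

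The SEC11A window holds 3 GC boxes and 1 ETS core, which shares 1 base with the second GC box, and no E-box or CCAAT box. That of SEC11C holds 1 GC box and 1 E-box, and neither of the other motifs. Of 35116 promoter windows of the same length, 45.0% hold a GC box, 10.3% the ETS core, 7.26% the E-box and 34.6% the CCAAT box. The windows of SPCS2 and SPCS3 hold 1 CCAAT box each, with 1 GC box in SPCS2 and 3 in SPCS3. The ER stress element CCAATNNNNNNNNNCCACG, found in 0.0769% of windows, had no match in the 4 windows. These are matches of letters in a window and describe neither binding nor a cause of the changes. The 4 windows hold 65.7% (SPCS2) to 70.7% (SPCS3) G and C, against a median of 58.7% over all windows. Of all windows, 68.7% held less than that of SPCS2 and 81.2% less than that of SPCS3.

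The accessory subunits other than SPCS1 did not pass the test. SPCS3 read 8.59, 8.67 and 8.58 in the KD arrays and 8.78, 8.63 and 8.74 in the NC arrays by its brightest probe set (log2 level). The groups overlapped, because NC replicate 2 lay among the KD arrays. The log2 change was -0.11 with a standard error of 0.079 (limma, adjusted p = 0.381) and a 95% interval from -0.29 to 0.074. Its probe sets differed in sign: 11721117_at, which carries no suffix for shared probes, changed by 0.11, and the dimmer 11721115_at by -0.27, and neither passed (limma, adjusted p = 0.440 and 0.227). Without NC replicate 2 the dimmer one changed by -0.43 and passed (limma, adjusted p = 0.0175).

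SPCS2, an accessory subunit on the cytosolic side, had a single probe set with its symbol alone, and that one was dim. It read 3.83, 4.07 and 4.02 in the KD arrays and 4.22, 3.56 and 4.49 in the NC arrays (log2 level). NC replicate 2 was the lowest and NC replicate 3 the highest of all 6 arrays, so the KD arrays lay inside the NC range. The change was -0.12 with a standard error of 0.21 (limma, adjusted p = 0.735). It became -0.38 without NC replicate 2 (limma, adjusted p = 0.0224) and 0.083 without NC replicate 3 (limma, adjusted p = 0.794), so that its size and sign rest on single control arrays.

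Another 3 probe sets are annotated to SPCS2 and to the pseudogene SPCS2P4 together, and are not members. They were bright, with group means of 8.96 to 9.82 (log2 level), and moved differently from each other. The probe set 11753772_s_at read 9.31, 9.36 and 9.38 in KD, against 9.11, 8.76 and 8.99 in NC, a change of 0.39 (limma, adjusted p = 0.0172 over all probe sets). That call was lost without KD replicate 2 (limma, adjusted p = 0.0545) or KD replicate 3 (limma, adjusted p = 0.0654). The probe set 11753773_x_at changed by 0.23 and did not pass (limma, adjusted p = 0.0772), except with trend and robust fitting (limma, adjusted p = 0.0207). The change of 11758173_s_at was -0.064, without passing (limma, adjusted p = 0.743). Which of the gene and the pseudogene these probe sets read cannot be told apart here.

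**Figure D2:**
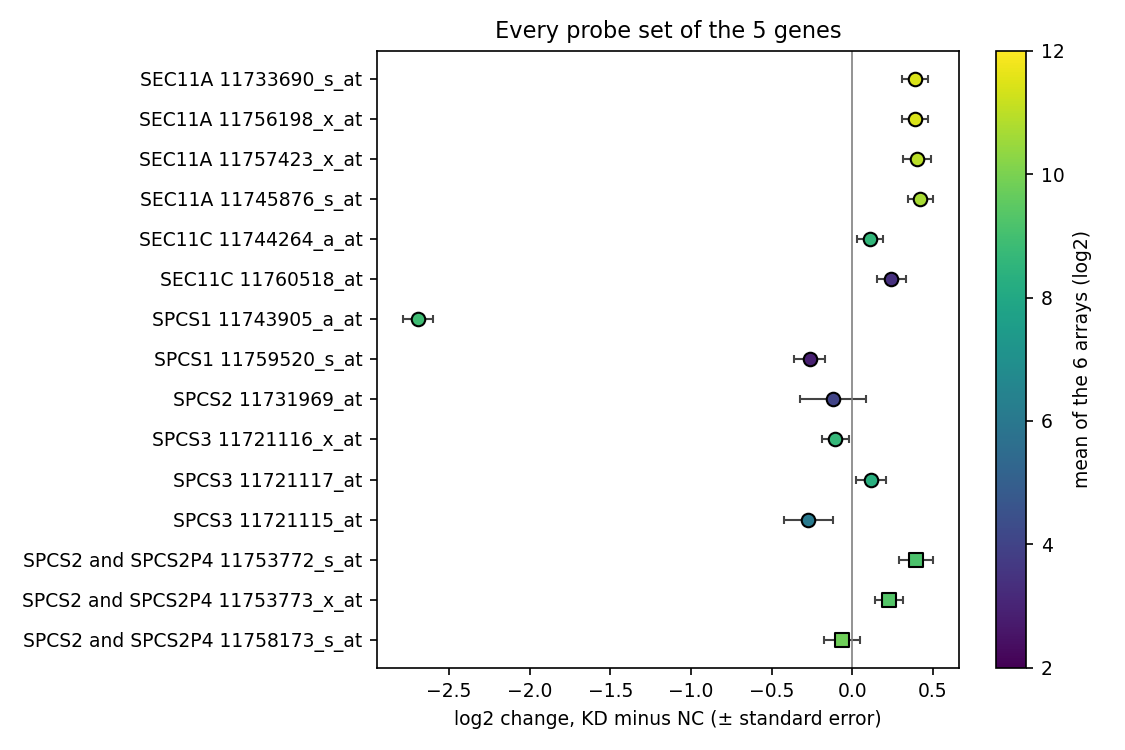
Change of every probe set of the 5 genes. The x axis is the log2 change, KD minus NC, with bars for the standard error; colour is the mean log2 level over the 6 arrays, circles are member probe sets and squares the 3 annotated to both SPCS2 and SPCS2P4. All 4 SEC11A probe sets lie between 0.39 and 0.42, the bright SPCS1 probe set at -2.69, and the dim one at -0.26.

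The genes beside SPCS1 on chromosome 3 were examined as the 3 nearest measured protein-coding genes on each side in RefSeq. Both immediate neighbours fell, by less than SPCS1, and the other 4 did not pass. Over all genes 15.9% were called lower, and SPCS3 and SEC11A also had 2 falls among their 6 neighbours. GLT8D1, which encodes a glycosyltransferase-domain protein, read 8.00, 7.86 and 7.89 in KD, against 8.72, 8.33 and 8.55 in NC (log2 level). Its change was -0.62 with a standard error of 0.11 (limma, adjusted p = 0.00202), and its other probe set changed by -0.63. NEK4, a NIMA-related kinase whose annotated span overlaps that of SPCS1, read 6.75, 6.46 and 6.52 in KD, against 7.03, 6.84 and 7.04 in NC. Its change was -0.40 with a standard error of 0.10 (limma, adjusted p = 0.0164). The NEK4 call was lost when KD replicate 2 or 3 or NC replicate 1 or 3 was left out (limma, adjusted p 0.0595 to 0.0713), and its other probe set changed by -0.33 without passing (limma, adjusted p = 0.0827).

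The other 4 neighbours of SPCS1 were UQCC5, an assembly factor of respiratory complex III, at a log2 change of 0.21 (limma, adjusted p = 0.0556), PBRM1, a chromatin remodelling subunit, at -0.030 (0.31 and passing without probe sets of s or x suffix; limma, adjusted p = 0.0353), and the inter-alpha-trypsin inhibitor genes ITIH1 at 0.069 and ITIH3 at 0.066. UQCC5 passed without NC replicate 2 (limma, adjusted p = 0.0495). It also passed with trend and robust fitting, array weights, averaged probe sets or dim genes left out (limma, adjusted p 0.0215 to 0.0436). ITIH1 and ITIH3 were dim in both groups, at 3.73 to 5.00.

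**Figure D3:**
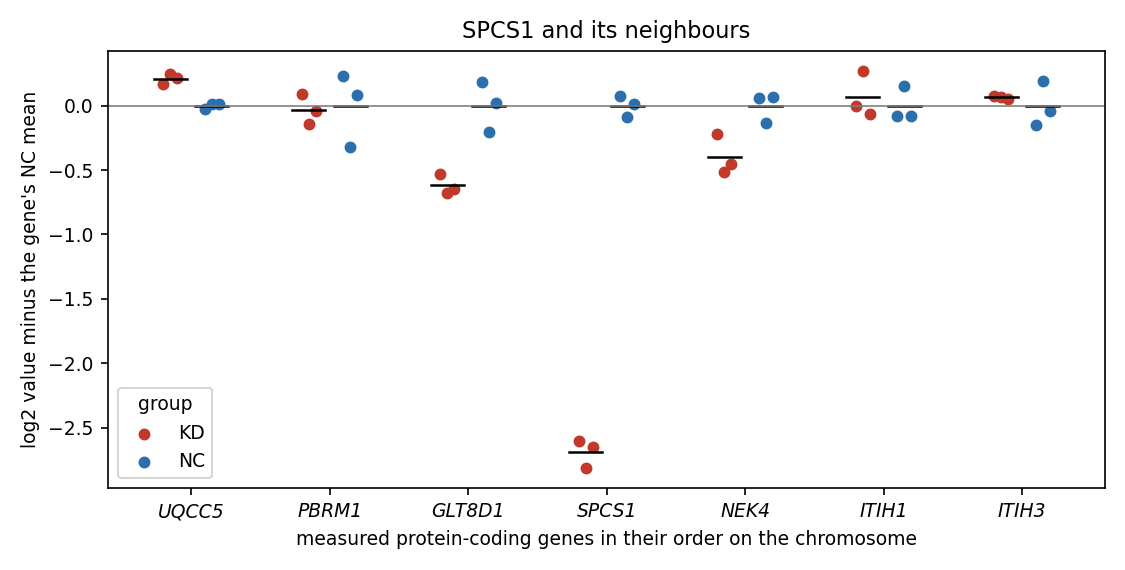
SPCS1 and its 6 nearest measured protein-coding neighbours, in their order on the chromosome and not to genomic scale. The y axis is the log2 value minus the gene's NC mean; red points are KD arrays, blue points NC arrays and black lines means. GLT8D1 at -0.62 and NEK4 at -0.40 flank SPCS1 at -2.69, and the other 4 means lie between -0.030 and 0.21.

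Of the neighbours of the other subunits, 1 rose and 5 fell. Around SEC11A, which rose, 2 of 6 neighbours fell and 0 rose: WDR73 (-0.98 ± 0.078) and the neuromedin B gene NMB (-0.89 ± 0.079; log2 change ± SE). Around SPCS3 the growth factor gene VEGFC (-0.60 ± 0.084) and the DNA glycosylase gene NEIL3 (-1.53 ± 0.12) fell, and around SPCS2 the adjacent gene XRRA1 (-1.21 ± 0.13, or -0.51 with averaged probe sets). Around SEC11C the zinc finger gene ZNF532 rose (0.29 ± 0.082), a call lost without any 1 of the KD replicates or NC replicate 1 (limma, adjusted p 0.0513 to 0.0887) and without probe sets of s or x suffix (0.21, limma adjusted p = 0.154). All 30 neighbours together held 1 rise and 7 falls, where 17.6% of all genes were higher and 15.9% lower. The rises numbered 3 without NC replicate 2, and 0 without any 1 of the KD replicates or NC replicate 1. The median change of the neighbours was -0.039, against -0.018 for all genes.

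Genes of protein entry into the ER, of steps beside or after signal peptidase, of the ER stress response and of mitochondrial presequence cleavage were counted in 9 lists. Together 21 of their 83 measured genes were higher and 22 lower in KD (25.3% and 26.5%), where 17.6% and 15.9% of all genes were, and the median change was 0.013. The same shares of all genes stand beside the counts of each list below. All genes include dim ones, whereas of the list genes only SPPL2C and ERN1 lay under the 40th percentile of mean level. Shares among genes of like level were not computed, so the lists cannot be said to hold more calls than such genes. The lists moved both ways, and the lowest change in any of them was -1.33. The genes named are those with the largest changes that passed the test with no overlap between groups, as log2 KD minus NC ± standard error.

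Upstream of the translocon, the signal recognition particle, which binds signal peptides on the ribosome, counted with its receptor, had falls in 5 of 8 genes and a rise in 1 (median -0.27). SRP19, which helps the particle assemble on its RNA, fell most (-1.33 ± 0.091), with 8.70 ± 0.13 in KD and 10.03 ± 0.065 in NC (log2 level, SD, n = 3 each), followed by SRP72 (-0.51 ± 0.075). Without probe sets of s or x suffix SRP19 changed by -0.75 and still passed. SRP14, of the domain that slows translation, rose (0.28 ± 0.072), and lost the call without KD replicate 2 (limma, adjusted p = 0.0538) or KD replicate 3 (limma, adjusted p = 0.0704). The lower genes numbered 2 without KD replicate 2 and 3 without KD replicate 3, NC replicate 1 or NC replicate 3. They also numbered 3 without probe sets of s or x suffix.

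At the translocon, 3 of 11 genes of the SEC61 channel and its partners rose and 1 fell. TRAM1, which helps nascent chains into the membrane, rose (0.77 ± 0.073), as did SSR4 (0.49 ± 0.079), a subunit of the translocon-associated protein complex. SSR1, another subunit of that complex, fell (-1.16 ± 0.11). Of 8 SSR1 probe sets 6 fell, 1 dim one rose (0.32), and the brightest without an s or x suffix changed by -0.21 (limma, adjusted p = 0.171). Dimmer SSR1 probe sets without such a suffix changed by -1.03 and -0.67 and passed (limma, adjusted p = 4.24e-05 and 0.000370). The one that rose also carries no such suffix. With s and x probe sets left out, SSR1 was read from the brightest remaining one alone, at -0.21. Of the channel subunits, SEC61A2 rose (0.39 ± 0.074), while SEC61A1 (0.067) and SEC61B (0.014) did not pass. The lower genes numbered 3 with trend and robust fitting, with array weights and with averaged probe sets, and 0 without probe sets of s or x suffix.

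Oligosaccharyltransferase, which adds N-glycans beside the translocon, had 3 of 12 genes higher and 2 lower. TUSC3 (0.46 ± 0.077) and OST4 (0.42 ± 0.076) rose, while KRTCAP2 (-0.56 ± 0.077) and TMEM258 (-0.52 ± 0.073) fell. The falls of KRTCAP2 and TMEM258 were not called from their dim probe sets without an s or x suffix (-0.17 and -0.18), so that the list then had 0 lower. The catalytic subunits STT3A (-0.18) and STT3B (0.11) did not pass.

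Routes for membrane proteins other than the classical one also went both ways. Of 15 genes of the ER membrane protein complex and the multipass translocon, 6 fell and 3 rose, led by EMC9 (-0.65 ± 0.089) and WDR83OS (-0.64 ± 0.082) downwards and EMC10 (0.49 ± 0.077) and EMC3 (0.34 ± 0.082) upwards. In the GET pathway, which inserts tail-anchored proteins, 3 of 6 rose and 1 fell. CAMLG, a receptor subunit of that pathway, rose most (1.21 ± 0.093, or 0.64 with averaged probe sets), with the targeting ATPase GET3 (0.75 ± 0.081), and the cochaperone SGTA fell (-0.71 ± 0.079).

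Among proteases and transferases that act on the products or substrates of signal peptidase, some genes were lower and some higher. HM13, the signal peptide peptidase that cuts cleaved signal peptides in the membrane, fell (-0.66 ± 0.080), and 5 of its 6 probe sets were called lower. Its relative SPPL2A rose (0.43 ± 0.075). SPPL2C, dim at 3.76 ± 0.14 in KD and 3.44 ± 0.089 in NC (log2 level, SD, n = 3 each), changed by 0.31 (limma, adjusted p = 0.0326), and lost the call without KD replicate 2 or 3 or NC replicate 1 or 3 (limma, adjusted p 0.0553 to 0.133). The list had 2 of 5 higher and 1 lower, and 1 higher when any 1 of those 4 arrays was left out. GPI transamidase, which replaces a carboxy-terminal signal with a lipid anchor, fell in 4 of 5 genes and rose in 0 (median -0.52). Over all genes 15.9% were lower and 17.6% higher. The alternatives kept 3 to 4 of these 5 genes lower. The protease subunit PIGK (-0.60 ± 0.12) and GPAA1 (-0.58 ± 0.096) fell most.

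**Figure D4:**
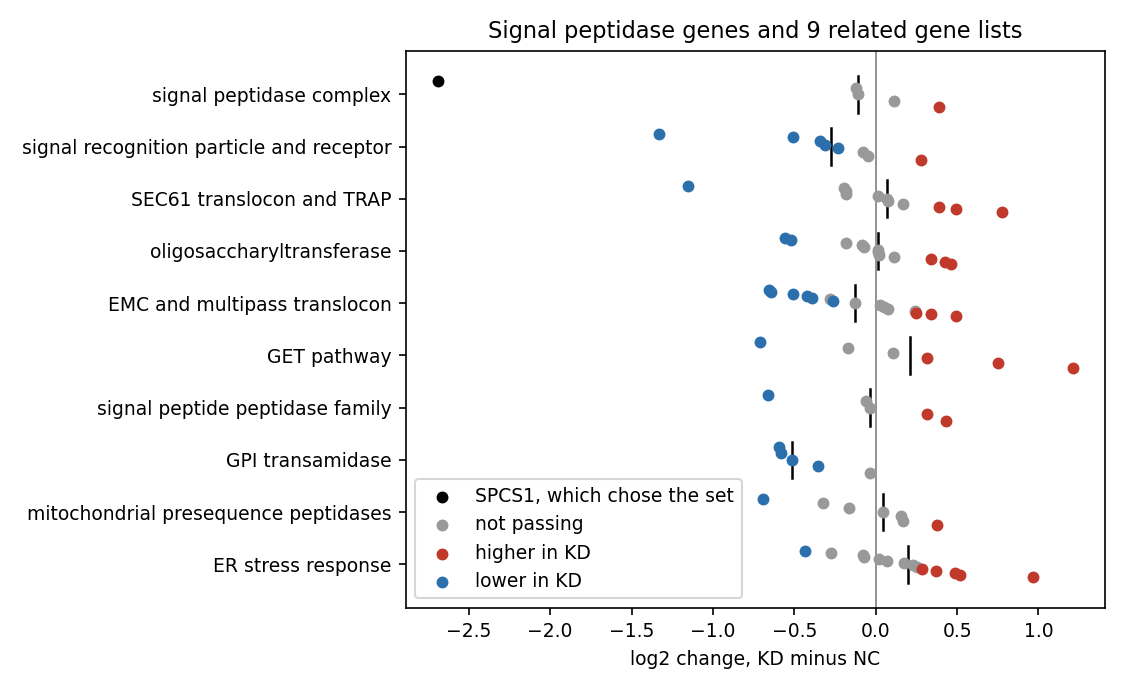
Change of each measured gene in the signal peptidase complex and 9 related lists. The x axis is the log2 change, KD minus NC, of the brightest probe set; red points were higher and blue points lower at a limma adjusted p under 0.05, grey points did not pass, black lines are list medians and the black point is SPCS1. The GPI transamidase list has the lowest median, at -0.52, with 4 of 5 genes lower, where 15.9% of all genes were.

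In mitochondria, IMMP1L and IMMP2L form the inner membrane peptidase, a relative of bacterial signal peptidase. IMMP1L was lower in KD (-0.69 ± 0.14) and IMMP2L higher (0.38 ± 0.12). The IMMP2L call (limma, adjusted p = 0.0447) was lost without any 1 of the KD replicates or NC replicate 3 (0.0584 to 0.124), with each array centred on its median (0.0651) and with averaged probe sets (0.0640). Without NC replicate 2 the change of IMMP2L was 0.23 and passed (limma, adjusted p = 0.0418). The matrix processing peptidase genes PMPCA (0.17) and PMPCB (0.16) did not pass, and the list had 1 of 7 higher and 1 lower. The lower ones numbered 2 without NC replicate 2 or with the replicate number as a block. They were also 2 with quantile normalization, trend and robust fitting, array weights or dim genes left out.

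Genes of the ER stress response included 5 rises and 1 fall among 14 (median 0.20). The chaperone genes DNAJB9 (0.97 ± 0.086) and HYOU1 (0.52 ± 0.088) rose, while XBP1, a transcription factor of that response, fell (-0.44 ± 0.083). All 9 HYOU1 probe sets changed upwards, by 0.12 to 0.59, but not all passed (limma, adjusted p up to 0.374). Of 3 DNAJB9 probe sets the dimmest changed by 0.11 without passing (limma, adjusted p = 0.631), and the others by 0.97 and 1.10. HSPA5, the main lumenal chaperone BiP, read 11.77 ± 0.062 in KD and 11.85 ± 0.15 in NC (log2 level, SD, n = 3 each) and did not pass (limma, adjusted p = 0.605). The higher genes numbered 3 without any 1 of the KD replicates. The lower ones numbered 2 without NC replicate 1, with the replicate number as a block, with averaged probe sets or with dim genes left out.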

How the data were processed

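Gene expression was measured on 6 Affymetrix arrays of A549 cells, 3 KD and 3 NC, grouped by sample title. Values of 49395 probe sets, deposited by the authors in 1 table, were taken as log2 values from their range; their summary and normalization are not given in the sources used here. Per the labels' protocols, biotin-labelled cRNA was made from total RNA extracted with Trizol. The number of arrays limits the precision.

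Symbols came from the platform annotation: 45278 probe sets had 1 symbol, 1333 several and 2682 none, and 102 were controls. Each of 18244 genes was represented by its brightest probe set with 1 symbol; 11825 genes had several. Tests were run in R 4.3.3 with limma 3.58.1 (two-sided moderated test from lmFit and eBayes, group as the only term, 4 residual and 4.67 prior degrees of freedom), with Benjamini-Hochberg adjustment over all 18244 genes, or over 49293 probe sets, and a threshold of 0.05. Members and lists were chosen with earlier results of these data known, and the lists get counts and medians, with no set test. The genes named are the 5 members, MRPL35, in each list up to 2 rises and 2 falls of largest size that passed with no overlap between groups, the 3 neighbours on each side, of which only those beside SPCS1 and those that passed are given singly, and the 5 genes most like SPCS1; others, SEC61A2 among them, are named for their role in a list, after their values were seen. RefSeq tables of GRCh38.p14 gave the order of genes and the promoter sequences. SEC61G, NOMO1 and UBL4A had no probe set used here.

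In a simulation of KD against NC over 18244 genes, 200 genes were changed. Of these, 33 of 67 changed by 0.5, 61 of 67 changed by 1 and 66 of 66 changed by 2 on the log2 scale were recovered. Changes of 0.5 or less, and some changes of 1, can thus be missed. The data called 3207 genes higher and 2903 lower, and the Benjamini-Hochberg adjustment is stricter where fewer genes change. The shares recovered therefore do not give the sensitivity of this comparison. The alternatives changed the scaling (quantile normalization, median centring), the fit (array weights, trend with robust fitting, a block on replicate number, a treat test against 0.2), the probe sets read (averaging them per gene, or none with s or x suffix), the genes tested (none under the 40th percentile of mean level, 5.41) and the arrays (each left out). Figures were drawn with matplotlib 3.10.9.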

Additional observations from a re-analysis of the deposited data

How the results depend on the processing

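SEC11A stayed higher and past the threshold in its 13 alternatives (change 0.36 to 0.40, limma adjusted p 5.89e-06 to 0.0188), and SEC11C kept its direction without passing in its 14 (0.064 to 0.18). With probe sets of s or x suffix left out, SEC11A had no probe set left. With genes under the 40th percentile left out, SPCS2 was not tested. The pseudocount planned for values on a linear scale was not run, since the values are log2. SPCS1 was chosen on its fall in these same arrays, so a fall in its 14 alternatives is a description and no support. Its changes were -2.73 to -2.63 with arrays left out in turn. With the mean of its probe sets the change was -1.48, because the dim one enters that mean. SPCS2 ranged from -0.38 to 0.083 with arrays left out. SPCS3 ranged from -0.15 to -0.073 with arrays left out, and was 0.11 without probe sets of s or x suffix, which changes the probe set read. Member probe sets outside SPCS1 called lower numbered 0, or 1 with array weights, and 0 to 2 with arrays left out; those called higher numbered 4 to 5. Whole-array counts of 3207 higher and 2903 lower genes became 1931 and 1826 in the treat test, which asks for more than 0.2. The 9 lists together kept 15 to 22 higher and 16 to 26 lower genes. Neighbours called higher numbered 1, or 3 with trend and robust fitting, with array weights and with dim genes left out, 2 with averaged probe sets, and 0 to 3 with arrays left out, the 3 without NC replicate 2. Among neighbours of SPCS1 that did not pass in the report, PBRM1 was 0.11 with averaged probe sets, 0.31 without s or x suffix, where it passed as higher (limma, adjusted p = 0.0353), and -0.19 to 0.086 with arrays left out, ITIH1 was -0.059, -0.16 and -0.033 to 0.15, and ITIH3 ranged from -0.0081 to 0.16 with arrays left out. The probe set 11758173_s_at ranged from -0.15 to 0.011. The causes were not tested.

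Groups share replicate numbers in the labels, but same-numbered samples did not all deviate together (correlations of deviations 0.25, 0.26 and -0.096), so the numbers were not taken to pair them. With the replicate number as a block SEC11A had a limma adjusted p of 0.00743, SPCS3 of 0.421, SEC11C of 0.364 and SPCS2 of 0.676, SPCS1 kept its change of -2.69, and 3262 genes were higher and 3014 lower. The lower genes of the ER stress list and of the mitochondrial list then numbered 2 each, against 1.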
